A study of Mus musculus with 17 samples.

Results

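Rps9, Rps20, Fau, Ppia, Fth1 and Cfl1 are housekeeping genes that start within the first 10 Mb of a mouse chromosome. They were chosen by name and matched by symbol to 6 of the 47643 rows of a table of counts per gene. The table covers splenic Foxp3-GFP+ regulatory T cells (Tregs) of NOD mice, the non-obese diabetic strain, sorted on a GFP reporter of Foxp3, the transcription factor that marks Tregs. The 17 libraries comprised 6 labelled Nfkbid transgenic (NOD-60A Tg+), 5 labelled Nfkbid knockout (NOD-Nfkbid-KO) and 6 labelled NOD control, all with the reporter. Each knockout and control library was a pool of 2 samples and each transgenic library came from 1 sample, so the transgenic comparisons also compare unpooled with pooled RNA. The sources used here give neither the promoter that drives the transgene nor the ages of the mice. All 17 libraries carry the same batch label. Nfkbid encodes a nuclear member of the IkB family, which binds NF-kB subunits.

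Housekeeping genes are transcribed in nearly every cell, and their transcripts often serve as the constant against which other transcripts are set. Rps9 and Rps20 encode proteins of the small ribosomal subunit, and Fau encodes another protein of that subunit fused to a ubiquitin-like protein. Ppia encodes cyclophilin A, a prolyl isomerase that helps proteins fold and binds the drug cyclosporin. Fth1 encodes the heavy chain of ferritin, which oxidises and stores iron. Cfl1 encodes cofilin, which severs actin filaments. Ribosomal protein transcripts of mammals typically begin with an unbroken run of pyrimidines, through which the growth-control kinase mTOR regulates their translation.

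The annotated start sites show how the 6 genes differ in this feature. The windows below hold 20 bases on each side of the RefSeq start site (build GRCm38.p6), 5′ to 3′ on the plus strand, and capitals mark the unbroken run of C or T that includes the start site. RefSeq promoters matched 5 of the 6 genes, and Fth1 had 2 start sites. Rps20 had no entry.
Rps9, chr7:3704021-3704060: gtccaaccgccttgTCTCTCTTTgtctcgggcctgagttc
Fau, chr19:6057927-6057966: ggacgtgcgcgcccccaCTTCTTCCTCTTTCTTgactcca
Ppia, chr11:6415847-6415886: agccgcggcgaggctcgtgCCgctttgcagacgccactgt
Fth1, first start site, chr19:9980580-9980619: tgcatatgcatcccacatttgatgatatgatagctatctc
Fth1, second start site, chr19:9982626-9982665: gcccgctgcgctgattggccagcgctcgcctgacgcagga
Cfl1, chr19:5490435-5490474: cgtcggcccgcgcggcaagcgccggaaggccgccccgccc
The run was 9 bases long in Rps9 and 16 in Fau, the ribosomal genes among them, 2 in Ppia and 0 at both Fth1 sites and in Cfl1. Counted from the start site on, where the transcript begins, it was 13 bases in Fau, which starts with C, 3 in Rps9, which starts with T, and 1 in Ppia. A run of at least 8 bases over the start site was found in 3.86% of all 32851 RefSeq promoters and in 19 of 69 promoters (27.5%) of a list of cytosolic ribosomal protein genes. A start with C and at least 4 pyrimidines was found in 3.76% and 21.7% of them, and of the 5 genes Fau had it. The match is a description of these letters and not a measured site.

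Library totals ran from 3133388 to 4726615 counts, and 3 counts equalled 0.6196 to 1.03 CPM, the count scaled by library size and TMM factor. Knockout replicates 2, 3 and 5 stood apart, with 13476 to 13802 rows above 0, against 15039 and 15931 in knockout replicates 1 and 4, 15801 to 16705 in transgenic and 15815 to 17379 in control libraries. The mitochondrial share of counts was 25.3 to 28.2% in those 3 libraries and 19.7 to 24.8% in the other 14. The transgenic libraries held 6.99 to 10.99 CPM of the Nfkbid row, knockout libraries 2.22 to 8.26 CPM and control libraries 3.07 to 5.38 CPM, so it does not separate knockout from control libraries, and the groups are taken from the labels. The 8 Treg markers summed to 1070.1 to 1209 CPM in transgenic libraries, 916 to 1072 CPM in knockout libraries and 913 to 1003 CPM in control libraries. Of these markers, 6 had a mean count of at least 10. By edgeR, Izumo1r (0.58, adjusted p = 7.8e-05) and Ikzf2 (0.48, adjusted p = 0.021) rose in transgenic against control libraries. The other 4 were not called, and 7.4% of all rows were. In knockout against control, Ikzf2 also rose (0.53, adjusted p = 0.041) and Izumo1r fell (-0.35, adjusted p = 0.048), where 1.89% of all rows were called. In transgenic against knockout, Izumo1r (0.93) and Ctla4 (0.75) were called higher and Ikzf2 was not called (-0.05), where 10.7% of all rows were called. Foxp3 itself held 285 to 342 CPM in transgenic libraries, 256 to 354 CPM in knockout libraries and 324 to 368 CPM in control libraries, while Tnfrsf18 and Cd3e had mean counts of 0.0588 and 2.00.

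The rows of Rps9, Ppia, Rps20 and Cfl1 had the counts that the label of abundant genes implies, and those of Fau and Fth1 did not. Rps9 (ENSMUSG00000006333, chromosome 7, 3703993 to 3706897, plus strand, GRCm38) had a mean count of 8262 per library, or 0.238% of all counts. Ppia (ENSMUSG00000071866, chromosome 11, 6415443 to 6419817, plus strand) had a mean count of 8158, or 0.235%. Rps20 (ENSMUSG00000028234, chromosome 4, 3831334 to 3835665, minus strand) had 4835 counts, or 0.140%, and Cfl1 (ENSMUSG00000056201, chromosome 19, 5490455 to 5495201, plus strand) had 3371 counts, or 0.0968%. Fau (ENSMUSG00000038274, chromosome 19, 6057844 to 6059524, plus strand) had 334 counts, or 0.00962%. Fth1 (ENSMUSG00000024661, chromosome 19, 9980598 to 9985098, plus strand) had 27.6 counts, or 0.000794%. In order of mean count over all rows, which is not corrected for length, Rps9 and Ppia held ranks 32 and 33, and Fth1 held rank 6783.

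Per length, the level of Rps9 was 957 ± 229.9 CPM per kb of exon (SD, n = 17 libraries) and that of Ppia 679 ± 168 CPM per kb. Cfl1 and Rps20 followed with levels of 347 ± 115 and 346 ± 70.1 CPM per kb, which did not differ beyond the spread over libraries. The Fau level was 102 ± 35.4 CPM per kb and the Fth1 level 2.32 ± 0.852 CPM per kb. Fau encodes a part of the same ribosomal subunit as Rps9 and Rps20 but had a level per kb below both in every group, with 90.7 ± 32.9 CPM per kb in transgenic (SD, n = 6), 130.0 ± 40.8 in knockout (SD, n = 5) and 89.8 ± 22.0 in control libraries (SD, n = 6). The order of starts along the chromosome, from nearest to farthest, was Rps9, Rps20, Cfl1, Fau, Ppia and Fth1. Fth1 was the farthest from its chromosome start and also the lowest. The levels did not otherwise follow this order, as Ppia, next to last in it, was above Rps20, Cfl1 and Fau.

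The 6 rows together took a mean of 0.720% of all counts, and the group means lay within the spread between libraries. The summed share was 0.759 ± 0.122% in transgenic (SD, n = 6), 0.738 ± 0.148% in knockout (SD, n = 5) and 0.666 ± 0.0582% in control libraries (SD, n = 6). The highest share was 0.979% in transgenic replicate 1 (95% Wilson interval 0.968 to 0.989%) and the lowest 0.581% in knockout replicate 4 (0.573 to 0.589%). These intervals cover counting error only, and the difference between libraries of 1 group was many times wider than them. In bulk libraries such as these, fewer cells of a type and less RNA per cell cannot be told apart.

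**Figure D1:**
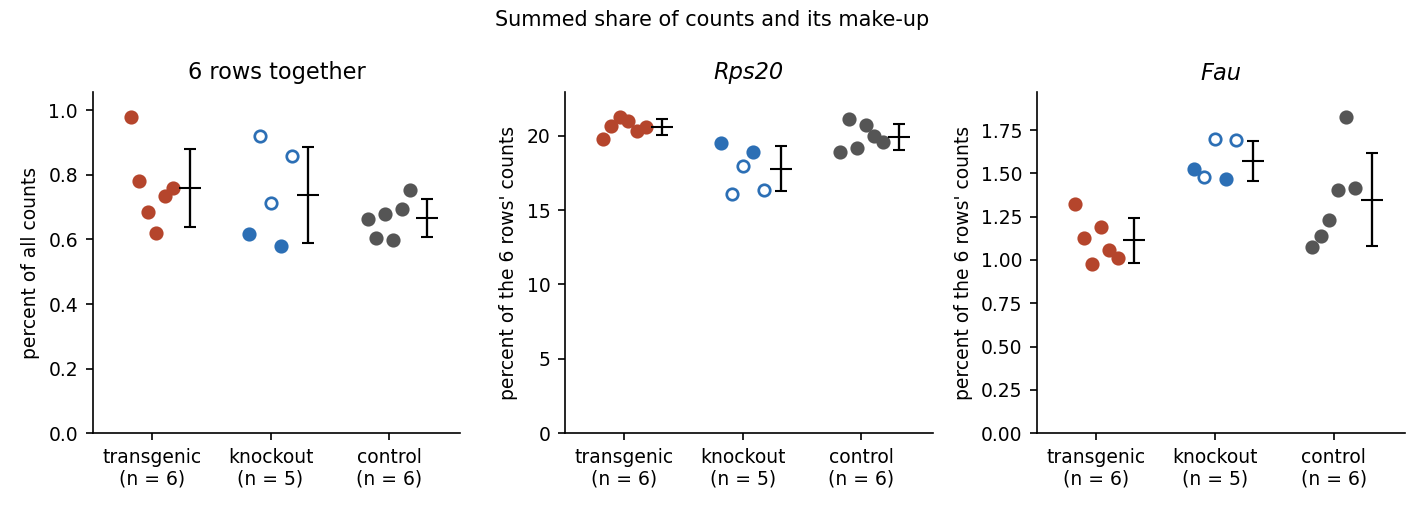
The left panel shows the percent of all counts taken by the 6 rows in each library, and the other panels show the percent of those rows' counts that were Rps20 and Fau. Points are libraries, open circles are knockout replicates 2, 3 and 5, and bars give the mean ± SD. The summed share overlaps between the groups, while the Rps20 and Fau parts do not overlap between transgenic and knockout libraries.

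The size of this sum overlapped between transgenic and knockout libraries, and 3 of its 6 parts did not. Rps20 made up 19.8 to 21.2% of the 6 rows' counts in transgenic libraries, against 16.1 to 19.5% in knockout libraries, and 18.9 to 21.1% in control libraries. Fau made up 0.974 to 1.32% in transgenic libraries, against 1.47 to 1.70% in knockout libraries, and 1.077 to 1.82% in control libraries. Of the 6 parts, those of Rps20, Fau and Fth1 did not overlap between transgenic and knockout libraries, with 0.0689 to 0.105% in transgenic against 0.110 to 0.139% in knockout libraries for Fth1, and those of Rps9, Ppia and Cfl1 overlapped. In CPM, 0 of the 6 rows were free of overlap between these groups, where 6.2% of all rows were. That share is for CPM and is not a background for the parts. Parts of 1 sum are tied to each other, so the 3 are not independent. Transgenic libraries also did not overlap with knockout replicates 1 and 4, where Rps20 made up 18.9 and 19.5% and Fau 1.47 and 1.52%. The controls overlapped both groups in the Rps20 and Fau parts. Rps9 and Ppia held steady parts, 32.0 to 34.5% and 31.2 to 34.3% over the 17 libraries. These parts are described without a test, since they were picked out after their values were seen, and parts were not computed for other rows of the table.

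**Figure D2:**
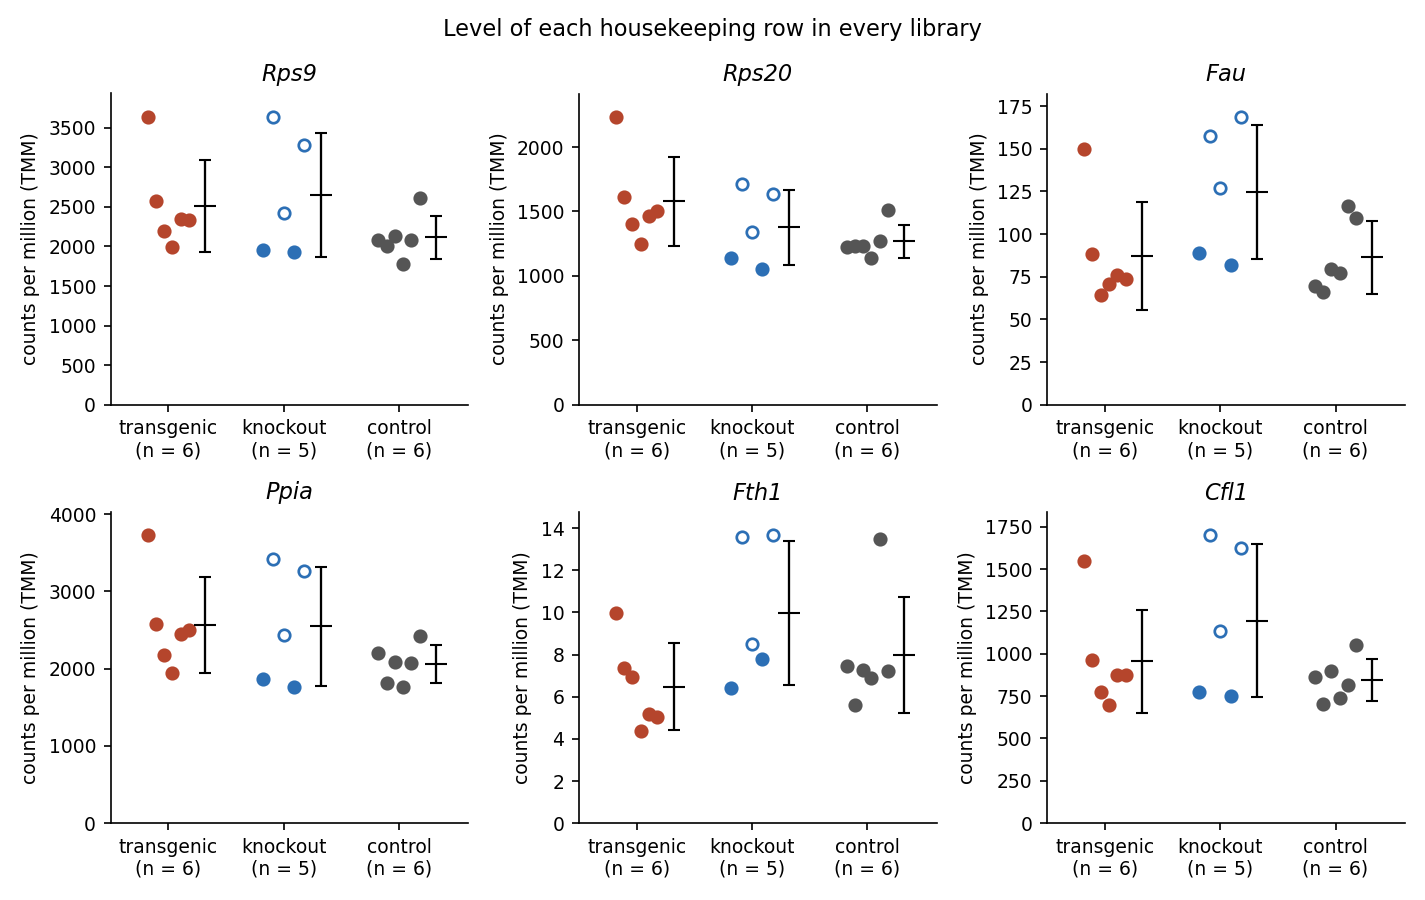
Each panel gives 1 row in CPM after TMM scaling, with 1 point per library, open circles for knockout replicates 2, 3 and 5, and the mean ± SD beside the points. Transgenic replicate 1 and knockout replicates 2 and 5 are the highest libraries of their groups in every panel, and the groups overlap in all 6 panels.

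No member passed an adjusted p of 0.05 in any comparison by the quasi-likelihood test of edgeR, with p-values adjusted over 9986 rows by the Benjamini-Hochberg method. For transgenic against control libraries 0 of the 6 were called, where 7.4% of all rows were (5.23% higher and 2.17% lower). For knockout against control libraries 0 of the 6 were called, where 1.89% of all rows were (0.881% higher and 1.01% lower). For transgenic against knockout libraries 0 of the 6 were called, where 10.7% of all rows were (6.34% higher and 4.33% lower). At an unadjusted p under 0.05 there were 1, 2 and 2 members in these comparisons, where 19.2%, 22.4% and 25.1% of all rows were. No member's groups were free of overlap, against 7.11%, 2.74% and 6.2% of rows. The median log2 fold change of the 6 was 0.21 for transgenic over control, 0.32 for knockout over control and -0.20 for transgenic over knockout, beside -0.01, -0.02 and -0.00048 over all rows tested. The 2 comparisons with controls share those control libraries.

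Rps9 ranged from 1997 to 3636 CPM in transgenic libraries, with a median of 2340.4 CPM. In knockout replicates 1 to 5 it held 1957, 3643, 2428, 1929 and 3284 CPM, and in control libraries it ranged from 1774 to 2612 CPM with a median of 2086 CPM. Knockout replicates 1, 3 and 4 lay among the controls, replicates 2 and 5 lay above them, and all groups overlapped. The log2 fold change of Rps9 was 0.25 (SE 0.16, 95% interval -0.08 to 0.58, adjusted p = 0.444) for transgenic over control. It was 0.32 (SE 0.17, -0.02 to 0.67, adjusted p = 0.253) for knockout over control and -0.07 (SE 0.17, -0.42 to 0.28, adjusted p = 0.833) for transgenic over knockout. None of these differences exceeded the spread between libraries.

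Rps20, the other canonical protein of the small subunit, ranged from 1250.2 to 2237 CPM in transgenic libraries, with a median of 1483 CPM. Knockout replicates 1 to 5 held 1136, 1712, 1343, 1057 and 1635 CPM, and control libraries ranged from 1138 to 1512 CPM with a median of 1233 CPM. Transgenic libraries had the highest mean and the highest single library, and the groups overlapped. The log2 fold change was 0.32 (SE 0.14, 95% interval 0.03 to 0.60, unadjusted p = 0.031, adjusted p = 0.193) for transgenic over control. It was 0.12 (SE 0.14, -0.18 to 0.41, adjusted p = 0.643) for knockout over control and 0.20 (SE 0.14, -0.10 to 0.49, adjusted p = 0.421) for transgenic over knockout. Without knockout replicates 2, 3 and 5, a choice made after seeing the data, Rps20 was higher in transgenic than in knockout libraries by 0.54 (SE 0.16, adjusted p = 0.04999), a call that rests on the remaining 2 knockout libraries.

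Fau ranged from 64.5 to 149.7 CPM in transgenic libraries, with a median of 74.9 CPM. Knockout replicates 1 to 5 held 88.7, 158, 127, 82.0 and 169 CPM, and control libraries ranged from 66.2 to 116 CPM with a median of 78.2 CPM. Apart from replicate 1, every transgenic library lay within the range of the controls or below it, whereas 3 of the 5 knockout libraries lay above every control library. The log2 fold change of Fau was 0.01 (SE 0.21, 95% interval -0.43 to 0.46, adjusted p = 0.986) for transgenic over control. It was 0.53 (SE 0.22, 0.07 to 0.99, unadjusted p = 0.026, adjusted p = 0.170) for knockout over control and -0.52 (SE 0.22, -0.98 to -0.06, unadjusted p = 0.030, adjusted p = 0.147) for transgenic over knockout. The last of these rested on few libraries: without transgenic replicate 1 it was -0.74 and called (adjusted p = 0.011), and without knockout replicates 2, 3 and 5 it was 0.04 and not called (adjusted p = 0.956).

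Ppia, the cyclophilin, ranged from 1940.4 to 3730.1 CPM in transgenic libraries, with a median of 2473 CPM. Knockout replicates 1 to 5 held 1869.5, 3414, 2439, 1761 and 3266 CPM, and control libraries ranged from 1761 to 2419 CPM with a median of 2079 CPM. Its libraries fell in nearly the order of those of Rps9, and all groups overlapped. Unlike for Rps9, knockout replicate 3 also lay above all controls, though only just, beside replicates 2 and 5. The log2 fold change was 0.31 (SE 0.17, 95% interval -0.03 to 0.66, adjusted p = 0.3204) for transgenic over control. It was 0.31 (SE 0.17, -0.05 to 0.67, adjusted p = 0.288) for knockout over control and 0.01 (SE 0.17, -0.35 to 0.37, adjusted p = 0.987) for transgenic over knockout. The last value lay near 0 and changed sign under several of the other scalings and fits tried.

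Fth1, the iron store, rested on few counts, with 15 to 29 in transgenic libraries, 24 to 42 in knockout libraries and 20 to 46 in control libraries. It ranged from 4.37 to 9.96 CPM in transgenic libraries, with a median of 6.06 CPM. Knockout replicates 1 to 5 held 6.40, 13.6, 8.50, 7.78 and 13.7 CPM, and control libraries ranged from 5.59 to 13.5 CPM with a median of 7.24 CPM. The highest control library, replicate 5, was as high as the highest knockout libraries, so the groups overlapped. The log2 fold change of Fth1 was -0.30 (SE 0.28, 95% interval -0.88 to 0.27, adjusted p = 0.630) for transgenic over control. It was 0.32 (SE 0.28, -0.27 to 0.90, adjusted p = 0.508) for knockout over control and -0.62 (SE 0.29, -1.22 to -0.02, unadjusted p = 0.042, adjusted p = 0.179) for transgenic over knockout. Counting error alone gave a coefficient of variation of 19.0% at this depth.

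Cfl1, the actin-severing cofilin, ranged from 699 to 1549 CPM in transgenic libraries, with a median of 875 CPM. Knockout replicates 1 to 5 held 771, 1701, 1136, 749.9 and 1622 CPM, and control libraries ranged from 702 to 1051 CPM with a median of 840.4 CPM. Knockout replicates 2, 3 and 5 lay above all controls and replicates 1 and 4 lay among them. The log2 fold change was 0.18 (SE 0.20, 95% interval -0.25 to 0.60, adjusted p = 0.722) for transgenic over control. It was 0.50 (SE 0.21, 0.06 to 0.94, unadjusted p = 0.028, adjusted p = 0.176) for knockout over control and -0.32 (SE 0.21, -0.77 to 0.12, adjusted p = 0.368) for transgenic over knockout.

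**Figure D3:**
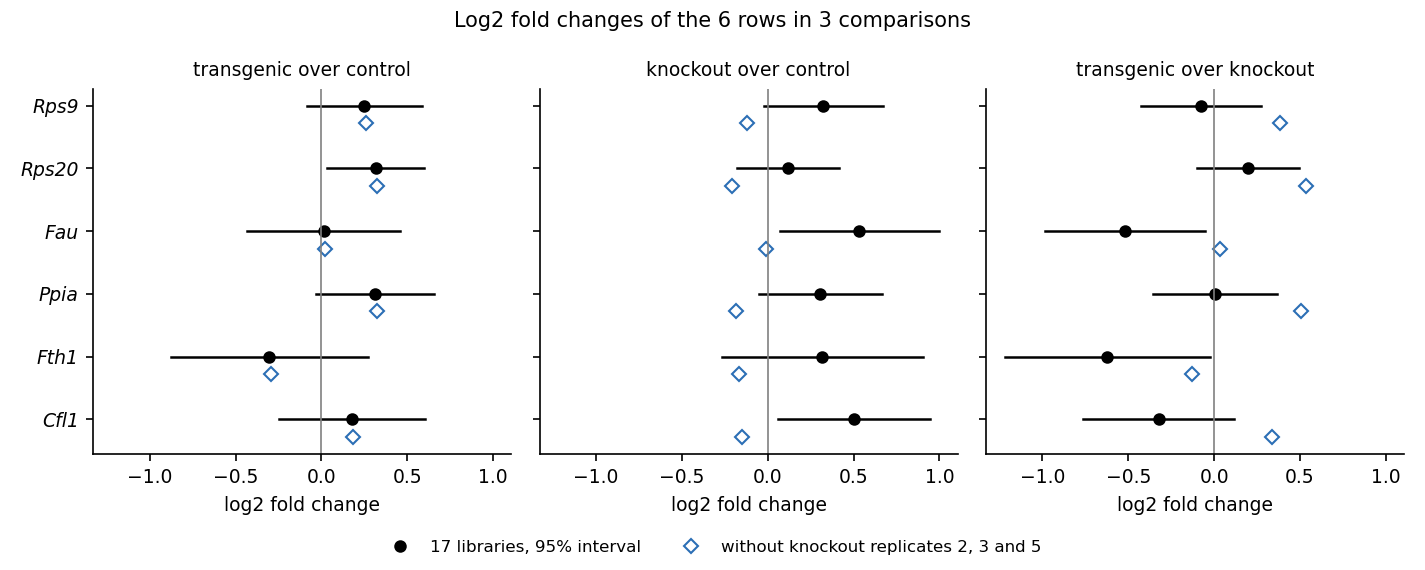
Log2 fold changes of the 6 rows are shown for each comparison, with filled circles and lines for the estimate from 17 libraries and its 95% interval, and open diamonds for the estimate without knockout replicates 2, 3 and 5. All 6 knockout over control values lie above 0 with 17 libraries and below 0 without those 3, and the transgenic over control values hardly move.

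The higher knockout means were gone when the 3 libraries with the fewest rows above 0 were left out together, but these 3 did not contribute alike. The members' median log2 fold change for knockout over control was 0.32 with all libraries. It was 0.18 without replicate 2 and 0.22 without replicate 5, but 0.36 without replicate 3. In knockout replicates 2, 3 and 5, Rps9 averaged 3118 CPM, Cfl1 1486 CPM and Fau 151 CPM, against 1943, 761 and 85.4 CPM in knockout replicates 1 and 4. Without those 3 libraries every knockout over control value turned below 0, with -0.12 for Rps9, -0.21 for Rps20, -0.01 for Fau, -0.18 for Ppia, -0.17 for Fth1 and -0.15 for Cfl1, and none was called. In transgenic over knockout, Rps9, Fau and Cfl1 then turned to 0.38, 0.04 and 0.34, and Ppia moved to 0.51 (adjusted p = 0.091). The part of the low number of rows and of the mitochondrial share in these values was not tested.

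**Figure D4:**
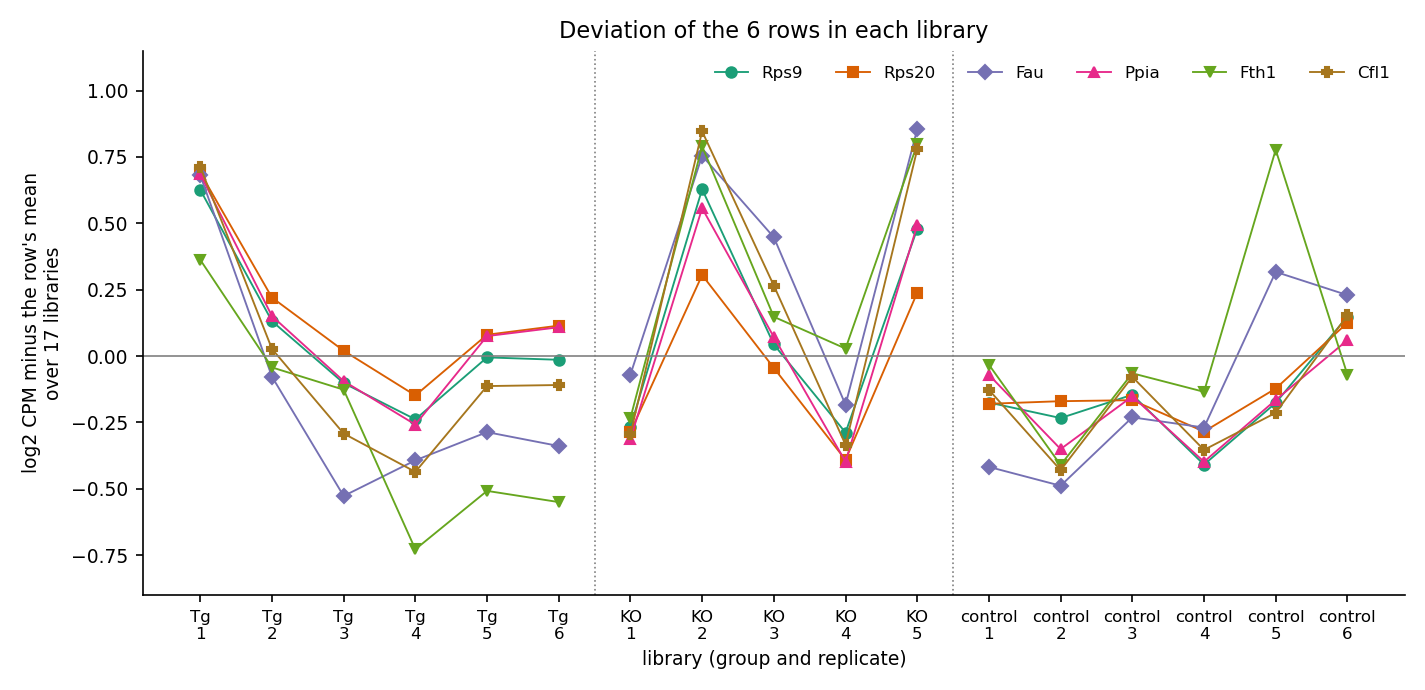
Each line gives 1 row as log2 CPM minus its mean over the 17 libraries, by library within each group (Tg, transgenic; KO, knockout). The 6 rows lie above their means together in transgenic replicate 1 and knockout replicates 2 and 5, and below them together in control replicates 1 to 4.

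The 6 rows moved together from library to library. All 6 lay above their own means in transgenic replicate 1, by 0.63 on average on the log2 scale, and in knockout replicates 2 and 5, by 0.65 and 0.61. Of the 6, 0 lay above their means in knockout replicate 1, in transgenic replicate 4 and in control replicates 1 to 4. The 3 high libraries also had the lowest TMM factors, 0.865, 0.865 and 0.860, against 0.952 to 1.09 in the other 14, and lower factors raise CPM. They were high without the factors too, with summed shares of 0.979%, 0.920% and 0.859% against at most 0.780% in the other 14. The part of the factors in the common movement was measured only as the change in spread given next.

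The spread of the 6 rows between libraries differed by row and by group. The coefficient of variation of Rps9 was 23.1% in transgenic, 29.5% in knockout and 13.0% in control libraries. For Ppia it was 24.2%, 30.1% and 11.9%, for Rps20 21.8%, 21.2% and 10.02%, and for Cfl1 31.9%, 37.8% and 14.8%. Fau had 36.3%, 31.4% and 24.5%, and Fth1 31.9%, 34.1% and 34.7%, in the same order of groups. Scaled by total counts alone, the transgenic value of Rps9 was 14.7%, and without transgenic replicate 1 it was 9.38%. With all 17 libraries and TMM scaling, control libraries thus had the lowest coefficient of variation in all rows but Fth1. By total counts this did not hold for Fau either. Its share was 0.0116 ± 0.00261% in knockout (SD, n = 5) and 0.00903 ± 0.00224% in control libraries (SD, n = 6), a smaller spread relative to the mean in knockout.

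Of the 200 rows nearest in level, most were steadier for all members but Fth1. For the abundant members these rows were not all of like level. They spanned log2 CPM of 9.26 to 12.89 for Rps9 and Ppia, 9.21 to 11.58 for Rps20 and 9.05 to 10.72 for Cfl1. For Fau they spanned 6.45 to 6.65. The within-group SD of log2 CPM was 0.40 for Cfl1, and 192 of the 200 rows nearest to it in level had a smaller one, with a median of 0.22. For Fau it was 0.41, with 191 of 200 rows below it and a median of 0.21. For Ppia (0.32) and Rps9 (0.31) 169 and 161 of 200 rows were steadier, and for Rps20 (0.25) 124 of 200 were. Fth1 was the exception, with an SD of 0.42 against a median of 0.49 and 51 of 200 rows steadier.

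Of the 15 log2 ratios between members, 11 had a lower SD over the 17 libraries than the log2 CPM of both their members. The ratio of Rps20 to Fth1 had a higher SD than both, 0.46 against 0.27 for Rps20 and 0.459 for Fth1, and 3 lay between their members. The log2 ratio of Rps9 to Ppia had an SD of 0.07 over the 17 libraries, against 0.31 for log2 CPM of Rps9 and 0.33 for that of Ppia. Its mean was -0.02 in transgenic, 0.06 in knockout and 0.04 in control libraries. The log2 ratio of Rps9 to Rps20 had an SD of 0.13 and ran from 0.64 to 0.70 in transgenic libraries, from 0.78 to 1.09 in knockout libraries and from 0.64 to 0.79 in control libraries. That ratio thus did not overlap between transgenic and knockout libraries, as was so for 7 of the 15 ratios. The 15 ratios share their rows and are not independent. Ratios between other rows were not computed, so the 7 have no background to be set against. A ratio within a library shows unequal change and not which row changed.

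Ppia and Rps9 were also most like each other among abundant protein-coding rows that start in the first 10 Mb. Pearson's r of log2 CPM over the 17 libraries was 0.977, beside a median of 0.435 for Rps9 over its 349 candidate rows. After Ppia, the rows most like Rps9 were Cdk2ap2 (0.974) and Gdi2 (0.974), and after Rps9 those most like Ppia were Gdi2 (0.972) and Ppp1ca (0.964). Rps20 was most like Ptprcap (0.959), Rpl28 (0.958) and Sem1 (0.938), of which Rpl28 encodes a protein of the large ribosomal subunit. Fau was most like Leng1 (0.936), Kdm2a (0.90) and Cfl1 (0.893), and Cfl1 was most like Grk2 (0.961), Rps9 (0.957) and Pxk (0.955). Fth1 was most like Coro7 (0.872), Kcnk7 (0.855) and Map2k7 (0.847). All these values share the libraries, their scaling factors and their depth, and are descriptions.

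Several rows near or like the members bear on what the counts hold. Of the 67-base stretches of each gene's transcripts, the stated read length, 27.6% of those of Fau also occurred in 1 other gene, Gm9843, whose row had a mean count of 0.567. For Ppia 15.5% were shared with 27 other genes, of which 1, Gm14046, had a mean count of at least 10. For Cfl1 14.5% were shared with 4 genes, chiefly Snx32, which overlaps it on the other strand and had a mean count of 58.8. Shared stretches came to 7.22% for Rps9, 6.11% for Rps20 and 1.103% for Fth1. The deposited counts carry the name of RSEM and are expected counts. The sources used here do not otherwise describe how the counting treated such reads or strand. Among the members only the Ppia row held counts that were not whole, in 16 of 17 libraries.

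Neighbours within 20 kb had counts of their own. Beside Rps9 these were Mboat7 and Tsen34 (mean counts 1638 and 56.2), beside Rps20 Lyn (32.2), and beside Fau Syvn1 and Mrpl49 (943.7 and 562). Beside Ppia they were Zmiz2 and H2afv (669 and 164), beside Cfl1 Mus81 and Snx32 (131 and 58.8), and beside Fth1 Rab3il1 and Best1 (2.51 and 0.118). Fth1 was thus the only member with no neighbour at a mean count of 10 or more, as 0 of its 2 neighbouring rows reached it.

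Of the ribosomal protein genes, those that start farther along the chromosome were mostly near 0. Of 80 rows of cytosolic ribosomal proteins, 5 start in the first 10 Mb, and all 5 had a mean count of at least 10, with a median of 1053. Among these, Rps9, Rps20 and Fau are members, chosen as abundant genes near chromosome starts, so they cannot show that early rows are higher. Only Rpl28 (1053) and Rpl37 (27.4) were not part of that choice. Of the 75 others 25 reached a mean count of 10, their median was 1.65 counts, and 14 rows of the list were at 0 in every library. The 3 rows of highest mean count were Rps9, Rps20 and Rpl7a (1428). Every growing cell needs the full set of ribosomal proteins, and the rows at 0 go against their names. Whether the members' rows count only the genes they name was not tested.

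**Figure D5:**
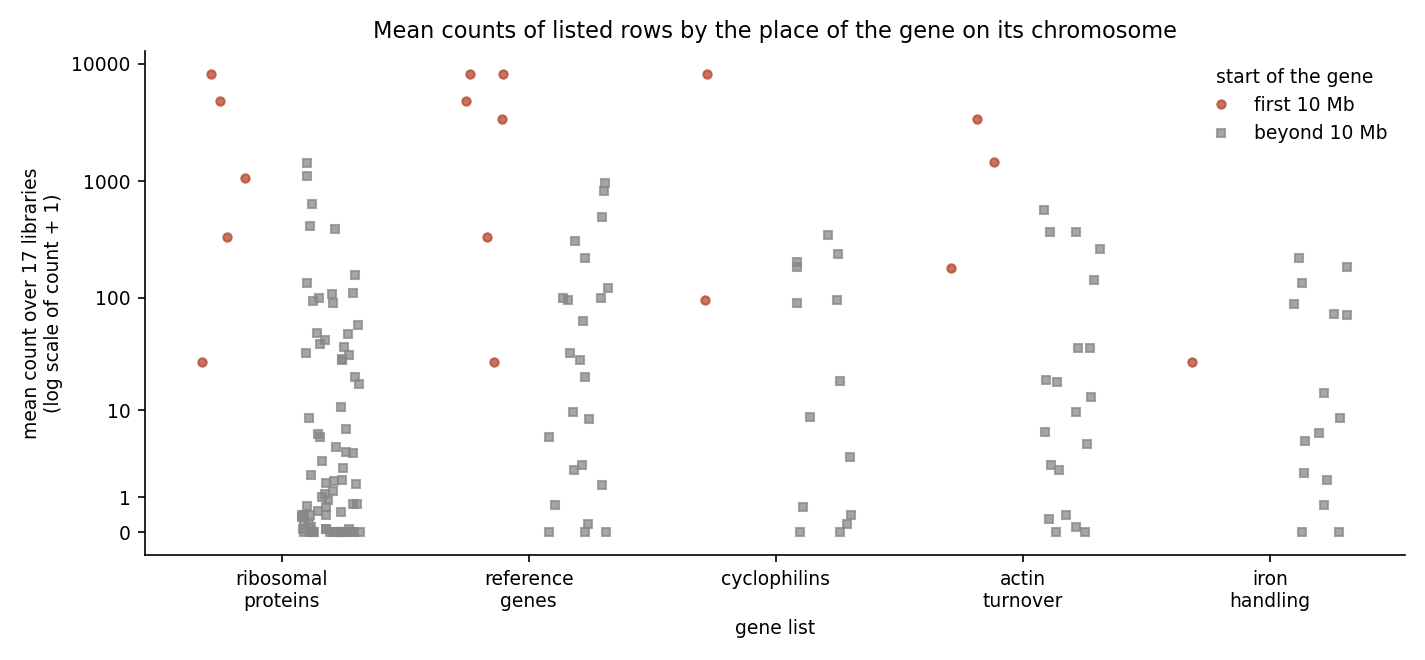
Each point is a row of 1 of 5 gene lists, by its mean count over 17 libraries on a log scale of count + 1, with circles for genes that start in the first 10 Mb of their chromosome and squares for the others. In the ribosomal protein list all 5 early rows lie above 10 counts, and most of the other 75 lie under 10. The early rows include the members Rps9, Rps20 and Fau, which were chosen as abundant genes near chromosome starts.

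The 30 rows of the list of reference genes hold all 6 members, which are its only genes in the first 10 Mb, and of the 24 others 13 had a mean count of at least 10, their median was 24.5 counts, and the highest was Gapdh with 959.8. Among the 11 under 10 were Actb, B2m, Hprt, Pgk1 and Eef1a1, with mean counts of 2.41, 0, 9.71, 5.53 and 0.176. Among 16 cyclophilins, Ppia was followed by Ranbp2 (342) and Ppig (236), and 7 of the 14 that start beyond 10 Mb had a mean count of at least 10. Among 23 rows of cofilin and actin turnover, Cfl1 was followed by Limk2 (1461), the kinase that inactivates cofilin, and Arpc3 (564), and 10 of its 20 rows beyond 10 Mb reached that count. Among 16 rows of iron handling the highest were Tfrc (218), Fbxl5 (182) and Ncoa4 (135).

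Of 31 ribosomal protein rows tested, 0 rose and 1 fell in transgenic against control libraries, where 7.4% of all rows were called. The median log2 fold change of these 31 rows was -0.01. None was called in knockout against control libraries, with 0 higher and 0 lower and a median of 0.02, and 0 rose and 3 fell in transgenic against knockout libraries, with a median of 0.02, where 10.7% of all rows were called. The row that fell in both transgenic comparisons was Rpl22, with -0.65 (SE 0.14, adjusted p = 0.0040) against control and -0.60 (SE 0.14, adjusted p = 0.0085) against knockout, and Rpl10 (-0.56) and Rpl37 (-0.997) fell against knockout. Of 20 tested reference rows, Tfrc, the transferrin receptor, rose in transgenic against control by 0.57 (SE 0.12, adjusted p = 0.0027), and Tfrc (0.44) and Hsp90ab1 (0.80) rose against knockout. Of 10 tested cyclophilins, Ppil1 rose in transgenic against knockout by 0.98, and of 14 tested actin rows Arpc3 rose in transgenic against control by 0.38. In the 5 lists 0 rows were called in knockout against control, where 1.89% of all rows were. The calls in the other lists stand beside the same shares of all rows, 7.4% against control and 10.7% against knockout for transgenic libraries. The called rows of the 5 lists were named after their values were seen.

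Markers of other cell types that a spleen sort could hold were measured beside the members. The erythroid list summed to 0 to 0.861 CPM in every library, and all 6 of its rows had mean counts under 10. The myeloid list summed to 11.7 to 17.2 CPM in transgenic libraries, 11.6 to 21.1 CPM in knockout libraries and 14.9 to 19.7 CPM in control libraries, with 1 of 6 rows at a mean count of at least 10. The B cell list summed to 178 to 270.2 CPM in transgenic libraries, 169.6 to 257 CPM in knockout libraries and 215 to 299.6 CPM in control libraries, with 2 of 6 rows at that level, and was lower in knockout replicates 2, 3 and 5 (169.6 to 197 CPM) than in replicates 1 and 4 (251 to 257 CPM). The CD8 T cell list summed to 1.72 to 10.8, 1.63 to 17.8 and 5.59 to 8.78 CPM in those groups. The NK cell list summed to 433 to 805 CPM in transgenic libraries, 28.9 to 40.0 CPM in knockout libraries and 26.0 to 33.0 CPM in control libraries, with 4 of 6 rows at a mean count of at least 10. Most of it was the Tyrobp row, with 418 to 789.8 CPM in transgenic libraries, 10.03 to 14.4 CPM in knockout libraries and 6.43 to 13.2 CPM in control libraries. Tyrobp (chromosome 7, 30413760 to 30417585) was called higher by edgeR in transgenic against control libraries (6.04, SE 0.19, adjusted p = 2.7e-15). It was also called against knockout (5.67, adjusted p = 3.4e-14). The place of this row relative to Nfkbid was not examined, and why it rose was not tested. The other NK cell rows tested, Gzma (-0.33), Nkg7 (0.12) and Eomes (-0.20), were not called in transgenic against control, and Ncr1 and Klrb1c had mean counts of 0.471 and 4.80. The part of these rows in the members' values was not tested.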

How the data were processed

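Per the labels' protocols, polyA libraries were read at 67 bp with a 9 bp molecular identifier, to about 27 M reads each. Per the submitters' processing notes, Bowtie2 and edgeR were used with GRCm38, and the series' text names Ensembl 102 transcripts. The authors deposited expected counts per gene under the name of RSEM, with 5.87% of values not whole. The sources used here do not say whether the identifiers were used. Counts were rounded. Of 47643 rows, 47224 matched GENCODE M21. TMM factors, filterByExpr and edgeR 4.0.16's quasi-likelihood test (R 4.3.3) were applied to all 17 libraries in 1 fit, with Benjamini-Hochberg adjustment over 9986 rows and a threshold of 0.05. The common biological coefficient of variation was 0.241. CPM are TMM-scaled, and log2 CPM used a prior count of 2. Limma 3.58.1 (voom), DESeq2 1.42.0, other scalings and filters, 2-group fits, a replicate block and leaving out libraries were tried. The fit was tested on simulated data. The p-values measure only the spread between these libraries. The members and lists were chosen with earlier results of these data known. The rule named the 6 members, the 2 neighbours of highest count, the 3 rows most like each member (average log2 CPM of at least 5) and the 3 highest rows per list. A row of the reference list is not reported here.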

Additional observations from a re-analysis of the deposited data

Results flagged for a closer look

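Dixon's criterion was applied to 39 sets of values, each of 1 quantity in 1 group, and picked out 1 library in 9 of them. For a single set, chance gives about 1 in 20. The 39 sets are not independent, since the rows move together and share libraries and scaling factors, so the 9 cannot be set against that rate. Transgenic replicate 1 was set apart above the other 5 transgenic libraries in Rps9 (3636 CPM), Rps20 (2237 CPM), Fau (149.7 CPM), Ppia (3730.1 CPM) and Cfl1 (1549 CPM), and in the part of the 6 rows' counts that was Cfl1 (13.7%). Control replicate 6 was set apart above the other controls in Rps20 (1512 CPM). Control replicate 5 was set apart above the other controls in Fth1 (13.5 CPM) and in the part of the 6 rows' counts that was Fth1 (0.211%). These are descriptions, and their causes were not tested.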

How the results depend on the processing

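Of the members' log2 fold changes under alternatives, 507 kept their direction and their side of the threshold, 31 reversed and 2 became called, Rps20 without knockout replicates 2, 3 and 5 and Fau without transgenic replicate 1, both for transgenic against knockout. Rows called for transgenic against control libraries were 1226 with 2 groups only and 1348 without knockout replicates 2, 3 and 5, and 529 to 876 leaving out 1 library. For knockout against control they were 571 with no filter, 605 by DESeq2, 76 with 2 groups only, 67 with the replicate block and 43 without those 3 knockout libraries, and 88 (without knockout replicate 5) to 1124 (without knockout replicate 4) leaving out 1 library. For transgenic against knockout they were 651 with 2 groups only and 670 with the replicate block, and 735 to 1641 (without transgenic replicate 1) leaving out 1 library, with 0 to 1 members called. Without those 3 knockout libraries 1 member, Rps20, was called. The share of calls that were higher was 70.6% with TMM and 58.9% by total counts for transgenic against control, and 46.6% and 29.3% for knockout against control, where total counts shifted the median of all rows by -0.13.

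Fau turned to -0.030 (upper quartile), -0.079 (total counts) and -0.014 (voom) for transgenic over control, and ran from -0.21 to 0.12 leaving out 1 library, as Cfl1 ran from -0.013 to 0.25. For knockout over control, the values without the 3 knockout libraries were -0.12 (Rps9), -0.21 (Rps20), -0.013 (Fau), -0.18 (Ppia), -0.17 (Fth1) and -0.15 (Cfl1), and Rps20 was -0.033 by total counts. For transgenic over knockout, Rps9 was 0.0047 by total counts and 0.38 without the 3, Fau 0.036 and Cfl1 0.34 without the 3, and Ppia -0.0013 (RLE), -0.038 (upper quartile), -0.0013 (DESeq2), -0.00095 (2 groups only) and -0.011 (replicate block). Leaving out 1 library, Rps9 ran from -0.21 to 0.070, Ppia from -0.13 to 0.14 and Fau from -0.74 to -0.38. The summed share without mitochondrial rows was 0.973% in transgenic, 0.985% in knockout and 0.848% in control libraries.

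By total counts, the coefficient of variation in transgenic libraries was 14.7% for Rps9 and 13.6% for Rps20, and in knockout libraries 11.9% for Rps20. Without the 3 knockout libraries it was 1.02% (Rps9), 5.14% (Rps20), 5.62% (Fau), 4.22% (Ppia), 13.8% (Fth1) and 1.98% (Cfl1), over the remaining 2. Leaving out 1 transgenic library it ran from 9.38 to 26.0% (Rps9), 9.25 to 24.4% (Rps20), 11.7 to 40.7% (Fau), 11.4 to 27.1% (Ppia) and 12.3 to 35.7% (Cfl1), and leaving out 1 control from 7.07 to 14.5% (Rps9), 4.09 to 11.2% (Rps20) and 10.9 to 38.1% (Fth1). The lowest values came without transgenic replicate 1, control replicate 6 (Rps9, Rps20) and control replicate 5 (Fth1). The causes were not tested. Same-numbered libraries did not pair, with r over 0.1 in 1 of 16 pairs (-0.52 to 0.36) and the own number best in 4 of 32 cases, and the replicate block changed no member's call. Fth1 is limited by its 15 to 46 counts.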
